A study of Mus musculus with 6 samples.

Results

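The genes described here are 9 members of the RAS pathway other than the RAF kinases: the RAL exchange factors Ralgds, Rgl1 and Rgl2, the RAL GTPases Rala and Ralb, the scaffolds Rassf1 and Rassf5, the phospholipase Plce1 and the RAC exchange factor Tiam1. They were picked out by gene symbol, and all 9 were found among the 40166 genes of the count table. Of these 9 genes, 8 had enough counts to be tested, and Plce1 did not. In tumors from mice treated with rigosertib (RGS), Tiam1 rose 4.78-fold and Ralgds rose 1.92-fold, while Rassf1 was 2.68-fold lower than in vehicle tumors. The other 5 tested genes did not pass the test.

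RAS in its GTP-bound state binds proteins that carry a RAS-binding or RAS-association domain, and each of these effectors opens a separate branch of signaling. RALGDS, RGL1 and RGL2 load the small GTPases RALA and RALB with GTP, and active RAL then binds the exocyst, which tethers secretory vesicles. RASSF1 and RASSF5 have no enzymatic activity and connect RAS to the Hippo kinases MST1 and MST2, encoded by Stk4 and Stk3. PLCE1 is a phospholipase C that makes the second messengers IP3 and diacylglycerol, and TIAM1 exchanges nucleotide on RAC, which drives actin remodeling. In melanoma, oncogenic RAS and BRAF signaling is best known for the RAF and PI3K branches, and RGS has been described as a small-molecule RAS mimetic directed at RAS-binding domains, among other mechanisms ascribed to it. All members other than Rala and Ralb encode proteins that bind RAS, and only their RNA was measured.

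RNA was sequenced from 6 subcutaneous tumors of YUMM3.3, a mouse melanoma cell line with mutant Braf, grown in C57BL/6 mice. Of these, 3 were vehicle tumors (water, replicates 7, 8 and 9) and 3 were RGS tumors (300 mg/kg, replicates 10, 11 and 12), with both given by oral gavage on 5 days a week, and the tumors were taken at day 17 of treatment. All 6 tumors came from the same cell line, so they share its mutations, and the age and sex of the mice are not in the labels. The replicates are numbered samples that the labels do not tie to separate mice, so p-values measure the spread between these samples.

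The deposited values were read counts per gene, which summed to between 22793087 and 32555494 in the vehicle tumors and between 13837932 and 21617368 in the RGS tumors. Since all 3 vehicle totals exceeded all 3 RGS totals, a split of the tumors by depth is the same as a split by treatment, and these cannot be told apart. The share of counts from the mitochondrial genome was 2.13% to 3.20% with vehicle and 5.60% to 8.22% with RGS, and that from cytosolic ribosomal protein genes was 5.66% to 10.2% and 3.15% to 3.68%. Thinning all libraries to the smallest total, or leaving those 2 gene groups out, changed no call of a member. Melanocyte markers were near absent: Tyr, Dct and Mlana had 0 counts in all 6 tumors, Sox10 had 18 counts in tumor 11 and 0 elsewhere, and Mitf had between 74 and 261 counts. The leukocyte marker Ptprc, the macrophage marker Adgre1 and the T cell markers Cd3d, Cd3e, Cd3g and Cd8a were also at 0 in all 6. The macrophage marker Cd68 had between 917 and 2265 counts (58.8 to 64.6 CPM with vehicle and 65.3 to 87.7 CPM with RGS, not called). The other macrophage markers, Csf1r, C1qa, C1qb, Lyz2 and Mrc1, had at most 7 counts in any tumor. Of the 6 leukocyte markers, Laptm5 (log2 fold change 2.35) and Cd53 (1.41) rose. The summed leukocyte level went from between 187 and 248 CPM to between 919 and 1028 CPM, nearly all of it from these 2 genes. Of the others, Ptprc and Cd48 had 0 counts in all 6 tumors. Coro1a had 0 to 20 counts, and Cd52 had 10 counts in vehicle tumor 9 and 0 elsewhere. Of the 8 T and NK cell markers, Trac had 0 counts in each vehicle tumor and 30, 16 and 10 counts in RGS tumors 10, 11 and 12. In contrast, Cd4 had 14 counts in vehicle tumor 9 and Ncr1 had 2 counts in vehicle tumor 8, both with 0 elsewhere. Nkg7 was at 0 in all 6. In vehicle tumors the 5 endothelial markers had a summed level between 0.731 and 0.962 CPM, against between 3.46 and 11.1 CPM in RGS tumors. Most of this rise came from Cdh5, which went from 0.55 ± 0.27 to 6.20 ± 3.78 CPM and was called higher. Pecam1 (mean 0.204 CPM, then 0.767 CPM) was not called. Kdr, Tie1 and Emcn had at most 6 counts in any tumor and were not tested. The 6 fibroblast markers summed to between 375 and 572 CPM in vehicle tumors and between 276 and 305 CPM in RGS tumors. Within the fibroblast list, Col1a2, Pdgfra and Pdgfrb fell, Dcn rose from 1.14 ± 0.49 to 10.7 ± 4.61 CPM, Col1a1 was not called and Lum was at 0. What these marker levels contribute to the members' values was not tested. The labels call the material melanoma tumor, and with these markers at 0 the mix of cells in it is uncertain. In bulk samples, fewer cells of a type and less RNA per cell cannot be told apart.

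The promoters of the 3 genes that passed the test are shown because the count table gives 1 value per gene and so does not separate the starts from which a gene is read. Each window runs from 250 bases before to 50 bases after a RefSeq start of GRCm38.p6, 5′ to 3′ on the gene's own strand. Capitals mark matches, on either strand, to 6 short motifs: AP-1 (TGANTCA), CRE (TGACGTCA), ETS (CCGGAAG), E2F (TTTCCCGC), GC box (GGGCGG) and E-box (CACGTG). Each of the 3 genes has 2 such windows. Those of Ralgds are chr2:28512917-28513216 and chr2:28533214-28533513 on the plus strand, and those of Rassf1 are chr9:107551305-107551604 and chr9:107554333-107554632 on the plus strand. Those of Tiam1 are chr16:89974650-89974949 and chr16:89818303-89818602 on the minus strand. Both Tiam1 windows lie inside the annotated gene, whose 5′ end is at 90143769, and no window covers that end. Upstream and downstream below give only the order of the 2 windows of a gene.
Ralgds, upstream start: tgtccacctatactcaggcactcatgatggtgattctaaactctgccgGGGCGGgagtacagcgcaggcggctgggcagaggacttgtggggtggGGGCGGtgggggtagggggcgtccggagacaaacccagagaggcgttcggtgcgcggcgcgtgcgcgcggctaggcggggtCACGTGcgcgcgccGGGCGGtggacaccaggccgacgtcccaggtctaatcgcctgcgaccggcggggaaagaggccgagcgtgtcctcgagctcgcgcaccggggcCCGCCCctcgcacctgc
Ralgds, downstream start: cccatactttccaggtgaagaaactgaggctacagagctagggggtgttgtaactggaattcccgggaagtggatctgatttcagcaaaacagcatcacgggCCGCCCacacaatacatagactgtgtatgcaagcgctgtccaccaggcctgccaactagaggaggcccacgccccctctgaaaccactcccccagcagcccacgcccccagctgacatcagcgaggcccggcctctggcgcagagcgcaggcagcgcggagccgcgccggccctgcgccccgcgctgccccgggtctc
Tiam1, upstream start: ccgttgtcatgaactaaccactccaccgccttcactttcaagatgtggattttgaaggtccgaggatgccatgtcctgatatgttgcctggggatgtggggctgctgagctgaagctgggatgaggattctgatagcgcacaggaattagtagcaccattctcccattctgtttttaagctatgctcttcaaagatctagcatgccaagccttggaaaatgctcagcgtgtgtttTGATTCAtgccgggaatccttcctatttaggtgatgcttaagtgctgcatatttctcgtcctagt
Tiam1, downstream start: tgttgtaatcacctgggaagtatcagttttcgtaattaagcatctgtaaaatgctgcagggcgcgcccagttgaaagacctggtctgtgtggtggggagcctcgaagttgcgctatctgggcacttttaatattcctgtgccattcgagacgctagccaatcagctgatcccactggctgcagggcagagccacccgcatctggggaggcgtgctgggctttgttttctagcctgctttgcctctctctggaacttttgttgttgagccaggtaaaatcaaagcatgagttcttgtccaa
Rassf1, upstream start: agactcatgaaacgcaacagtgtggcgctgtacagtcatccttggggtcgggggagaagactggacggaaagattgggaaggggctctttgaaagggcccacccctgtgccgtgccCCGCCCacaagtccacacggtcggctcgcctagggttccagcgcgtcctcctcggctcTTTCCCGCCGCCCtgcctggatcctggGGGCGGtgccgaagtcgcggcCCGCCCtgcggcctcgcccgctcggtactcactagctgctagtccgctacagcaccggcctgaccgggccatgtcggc
Rassf1, downstream start: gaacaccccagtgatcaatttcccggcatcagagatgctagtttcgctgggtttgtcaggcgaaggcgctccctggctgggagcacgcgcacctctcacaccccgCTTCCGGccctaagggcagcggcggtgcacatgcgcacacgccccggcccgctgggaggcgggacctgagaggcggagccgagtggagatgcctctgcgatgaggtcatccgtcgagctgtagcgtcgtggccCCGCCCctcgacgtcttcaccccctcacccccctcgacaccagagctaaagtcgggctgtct

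The upstream Ralgds window held 37 CpG dinucleotides, 4 GC boxes and 1 E-box, and the downstream window 19 CpG and 1 GC box. The upstream Tiam1 window held 7 CpG and 1 AP-1 motif, at position 236 counted from the 5′ end of the window, and the downstream window held 9 CpG and no match to the 6 motifs. Each Rassf1 window held 27 CpG. The upstream Rassf1 window had 4 GC boxes and 1 E2F motif, whose last base is also the first base of a GC box, and the downstream window had 1 ETS motif and 1 GC box. The median over all 32851 RefSeq promoters of this length was 7 CpG. Among those promoters 7.81% held the AP-1 letters, 1.79% the CRE, 8.86% the ETS motif, 1.07% the E2F motif, 35.7% the GC box and 7.15% the E-box. The 9 members had 13 such windows in all. A match of letters is a description of the sequence, and binding was not measured.

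Levels are given below as CPM (counts scaled to a common library total) after TMM scaling of the libraries, as mean ± SD over 3 tumors. The groups were tested with edgeR (quasi-likelihood F test) over 15355 genes, with Benjamini-Hochberg adjustment, and a gene was called at an adjusted p under 0.05. At this threshold 32.8% of all tested genes were called, 16.3% as higher and 16.5% as lower in RGS tumors. Of the 8 tested members, 3 (37.5%) were called, 2 as higher and 1 as lower, so the share of members called lay close to that of all genes and is not a property of this set. The median log2 fold change was 0.20 over the 8 tested members and -0.048 over all tested genes.

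**Figure D1:**
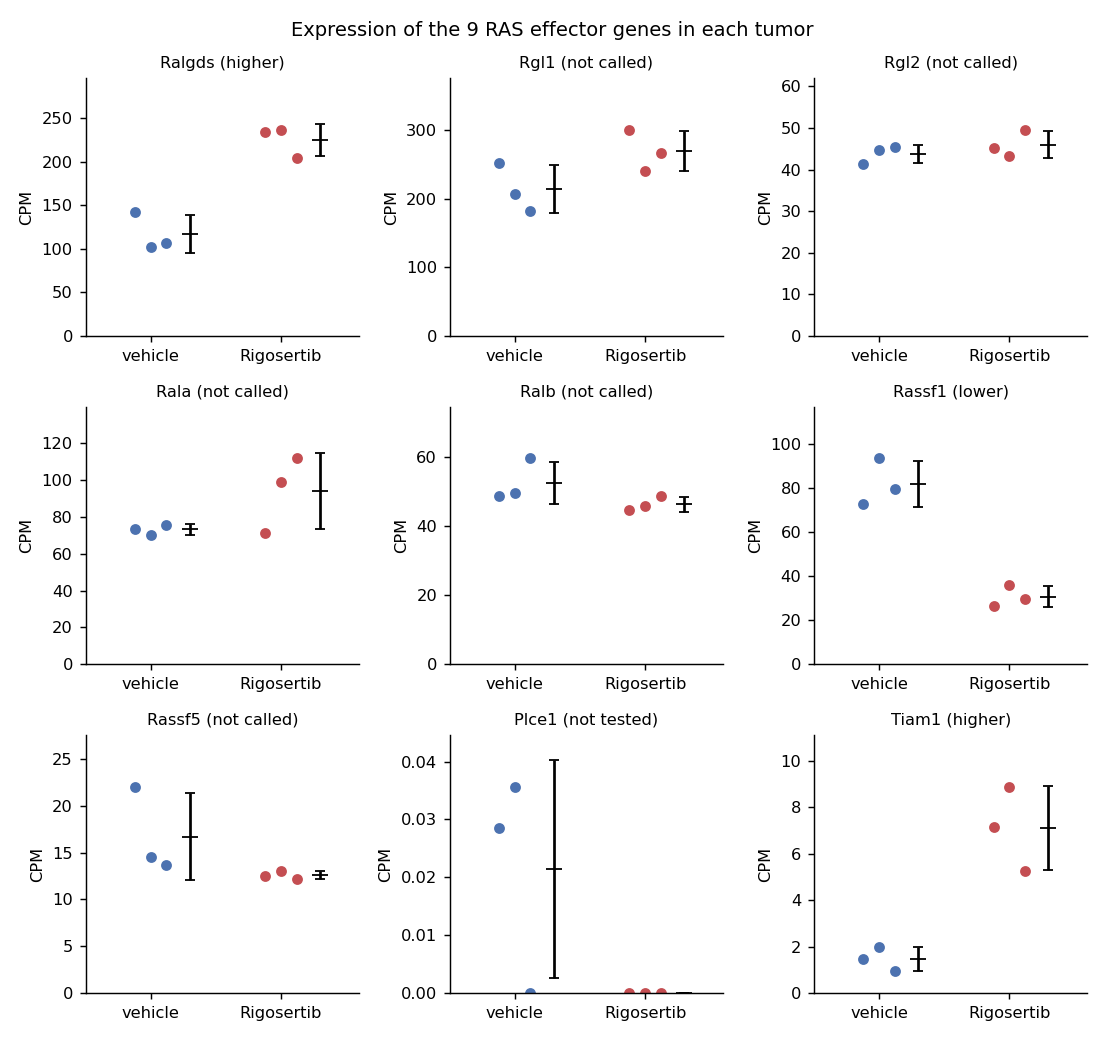
CPM of each of the 9 genes in each tumor, with its own vertical scale from 0; blue points are the 3 vehicle tumors and red points the 3 RGS tumors, and the bar to the right of each group is the mean ± SD. Ralgds and Tiam1 were higher in every RGS tumor and Rassf1 lower in every RGS tumor, Rassf5 was also lower in each but did not pass the test, and Plce1 had at most 1 count per tumor.

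Ralgds encodes the prototype RAL exchange factor and lies on chromosome 2 (GRCm38, 28513125 to 28553081, plus strand). It had 142, 102 and 107 CPM in vehicle tumors 7, 8 and 9 and 235, 237 and 204 CPM in RGS tumors 10, 11 and 12. Every RGS tumor was above every vehicle tumor, with the lowest RGS value (tumor 12) well over the highest vehicle value (tumor 7). The mean rose from 117 ± 21.9 to 225 ± 18.2 CPM, a log2 fold change of 0.94 (SE 0.17, 95% interval 0.59 to 1.29, adjusted p = 0.000234).

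Rgl1, a RALGDS paralog with the same exchange activity, is on chromosome 1 (152516760 to 152766351, minus strand). Its values were 253, 208 and 183 CPM with vehicle and 301, 241 and 268 CPM with RGS. The groups overlapped, since RGS tumor 11 lay below vehicle tumor 7. The difference of 0.33 on the log2 scale (SE 0.16, interval -0.0073 to 0.67, adjusted p = 0.125) did not pass the test. Without vehicle tumor 7 this difference was 0.47 with an adjusted p of 0.0102. With any other single tumor omitted, the adjusted p was 0.145 to 0.365. Rgl2, the third exchange factor, on chromosome 17 (33929543 to 33937687, plus strand), had 41.3, 44.7 and 45.4 CPM with vehicle and 45.2, 43.4 and 49.5 CPM with RGS. These ranges overlapped, and the log2 fold change of 0.071 (SE 0.17, interval -0.29 to 0.44, adjusted p = 0.792) did not pass.

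**Figure D2:**
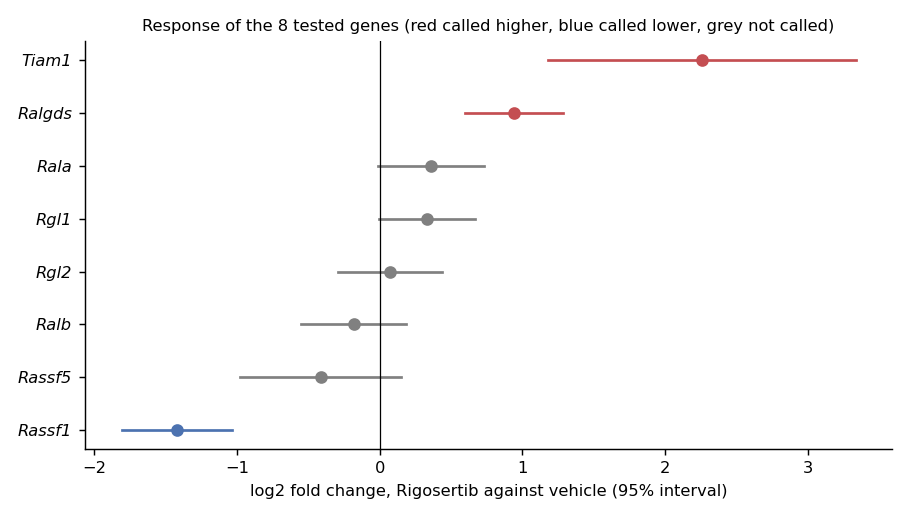
Log2 fold change of the 8 tested genes, RGS against vehicle (horizontal axis), with 95% intervals from the edgeR fit; the vertical line marks no difference, red is called higher, blue called lower and grey not called. The intervals of Tiam1 (1.181 to 3.33) and Ralgds (0.59 to 1.29) lie above 0 and that of Rassf1 (-1.81 to -1.03) below it.

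The substrates of these exchange factors are RALA and RALB, close paralogs with separate roles in membrane traffic and in survival signaling. Rala, on chromosome 13 (17880571 to 17944239, minus strand), had 73.2, 70.2 and 75.7 CPM in vehicle tumors and 71.2, 98.9 and 111 CPM in RGS tumors. RGS tumors 11 and 12 were above all vehicle tumors, while RGS tumor 10 lay within their range. The log2 fold change of 0.36 (SE 0.18, interval -0.011 to 0.73, adjusted p = 0.128) did not pass. Without RGS tumor 10 this fold change was 0.52 with an adjusted p of 0.0405. With any other single tumor omitted, the adjusted p was 0.125 to 0.489. Ralb, on chromosome 1 (119470305 to 119504794, minus strand), had 48.7, 49.6 and 59.7 CPM with vehicle and 44.6, 45.9 and 48.9 CPM with RGS. The groups overlapped, and the log2 difference of -0.18 (SE 0.17, interval -0.55 to 0.19, adjusted p = 0.464) did not pass.

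Levels of different genes were compared per kb of gene length. The 3 exchange factors together summed to 68.7, 56.4 and 53.6 CPM per kb with vehicle and to 91.4, 82.7 and 82.6 CPM per kb with RGS, with no overlap (59.6 ± 8.03 against 85.6 ± 5.04, exact two-sided permutation test p = 0.1, the smallest that 3 against 3 tumors allow). Within that sum, Ralgds made up 33.7%, 29.5% and 32.4% in vehicle tumors and 41.7%, 46.4% and 40.1% in RGS tumors. The share of Rgl1 was 52.0% ± 2.33 with vehicle and 45.6% ± 2.93 with RGS, and that of Rgl2 was 16.2% ± 2.79 and 11.7% ± 1.17 (exact permutation p = 0.1 for each share). The RAL GTPases summed to 35.9 ± 2.08 CPM per kb with vehicle and 41.8 ± 7.51 CPM per kb with RGS, and these sums overlapped (exact permutation p = 0.4). Rala made up 71.9%, 70.6% and 68.3% of the RAL sum in vehicle tumors and 73.1%, 78.6% and 79.5% in RGS tumors, with no overlap between the groups.

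**Figure D3:**
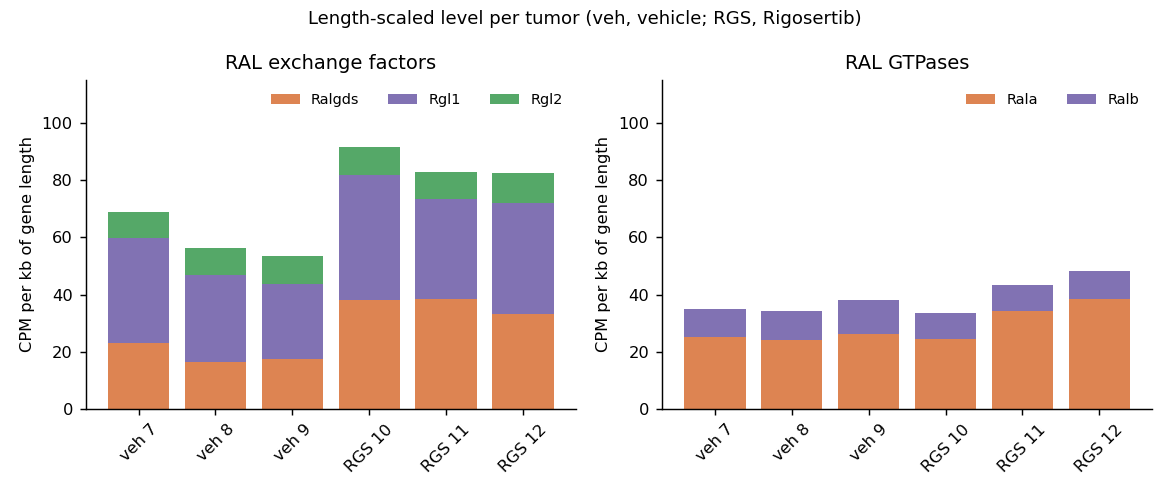
Level per tumor in CPM per kb of gene length, stacked for the 3 RAL exchange factors (left) and the 2 RAL GTPases (right), in 3 vehicle (veh) and 3 RGS tumors. The exchange factor sum was higher in each RGS tumor, with Ralgds taking up 40.1% to 46.4% of it against 29.5% to 33.7% with vehicle.

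A ratio of 2 genes within a tumor does not depend on how libraries are scaled. The Rala to Ralb ratio per kb was 2.56, 2.40 and 2.16 in vehicle tumors and 2.71, 3.66 and 3.88 in RGS tumors. All RGS ratios were above all vehicle ratios, although RGS tumor 10 was close to vehicle tumor 7. The log2 ratio went from 1.24 ± 0.12 to 1.76 ± 0.28, a difference of 0.51. The Ralgds to Rgl1 ratio was 0.631, 0.552 and 0.656 with vehicle and 0.875, 1.10 and 0.855 with RGS, a log2 difference of 0.62. Ralgds was thus below Rgl1 in all 3 vehicle tumors and about level with it in the RGS tumors. The Ralgds to Rgl2 ratio differed by 0.88 (from 0.99 ± 0.33 to 1.87 ± 0.22 on the log2 scale), also without overlap. The Rgl1 to Rgl2 log2 ratio was 1.70 ± 0.31 with vehicle and 1.97 ± 0.16 with RGS, and these overlapped (exact permutation p = 0.3). For the 4 ratios without overlap, that of Rassf1 to Rassf5 included, the exact two-sided permutation test gave its smallest possible p of 0.1 (adjusted p = 0.125 over the 5 ratios), so with 3 tumors against 3 this test could not bring any of them under 0.05.

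**Figure D4:**
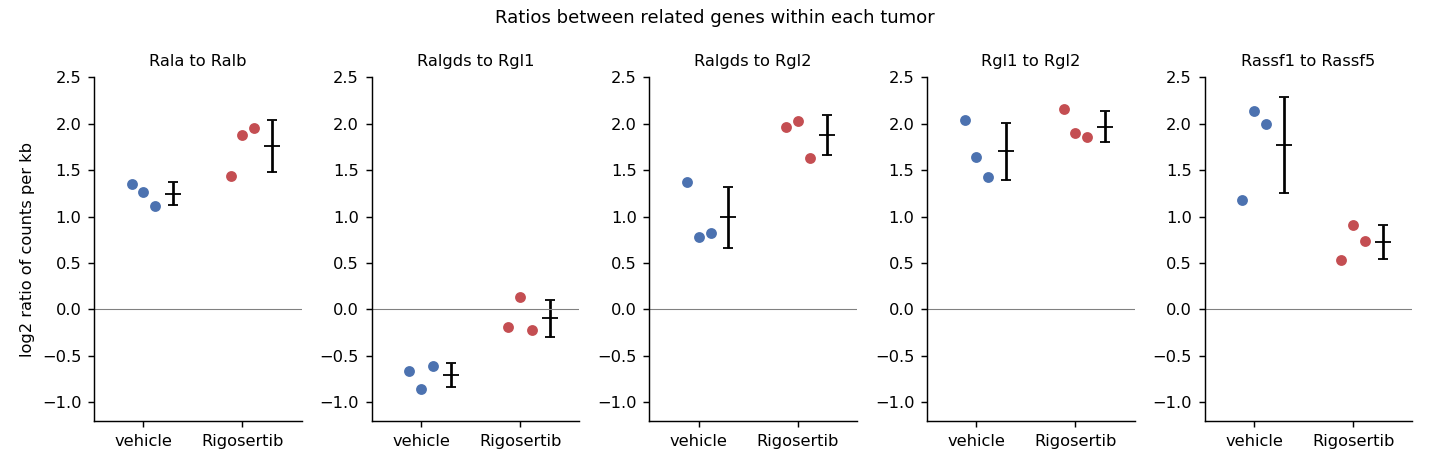
Log2 ratio of counts per kb for 5 pairs of related genes in each tumor (points; blue vehicle, red RGS), with the mean ± SD of each group; the line at 0 marks equal levels. The groups do not overlap for Rala to Ralb, Ralgds to Rgl1, Ralgds to Rgl2 and Rassf1 to Rassf5, and do overlap for Rgl1 to Rgl2.

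Rassf1 is a tumor suppressor gene that in many cancers is silenced by promoter methylation, and it lies on chromosome 9 (107551555 to 107562267, plus strand). It had 72.7, 93.3 and 79.6 CPM in the vehicle tumors and 26.5, 35.8 and 29.7 CPM in the RGS tumors. Every RGS tumor was far below every vehicle tumor. The mean fell from 81.9 ± 10.5 to 30.6 ± 4.73 CPM, a log2 fold change of -1.42 (SE 0.18, interval -1.81 to -1.03, adjusted p = 1.05e-05). The antisense gene Gm9917 shares 2496 exonic bases with Rassf1, which is 42.7% of the exonic bases of Rassf1. The strand setting of the counting is not given in the sources used here, so reads in the shared bases cannot be assigned to either gene with certainty. Gm9917 itself had between 13 and 66 counts per tumor, whereas Rassf1 had 2550, 2620 and 1852 counts with vehicle and 559, 475 and 485 with RGS.

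Rassf5, whose products include the RAS-binding proteins NORE1A and RAPL, is on chromosome 1 (131176410 to 131245258, minus strand). Its values were 22.0, 14.5 and 13.6 CPM with vehicle and 12.5, 13.0 and 12.2 CPM with RGS. The groups did not overlap, yet vehicle tumors 8 and 9 were close to the RGS tumors and tumor 7 stood above them. The log2 difference of -0.41 (SE 0.27, interval -0.98 to 0.15, adjusted p = 0.256) did not pass the test and was -0.16 without vehicle tumor 7. Its exons share 78 bases (1.95%) with Eif2d on the opposite strand. Groups that do not overlap were seen for 45.8% of all tested genes and for 4 of the 8 tested members (Ralgds, Tiam1, Rassf1 and Rassf5). The Rassf1 to Rassf5 ratio per kb was 2.26, 4.40 and 3.99 in vehicle tumors and 1.45, 1.87 and 1.66 in RGS tumors, a log2 difference of -1.04. The Rassf1 length in this ratio includes the bases shared with Gm9917.

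Plce1, the phospholipase C that RAS itself binds, on chromosome 19 (38481109 to 38785030, plus strand), had 1 count in vehicle tumors 7 and 8 and 0 counts in tumor 9 and in each RGS tumor. All of these are under the limit of 3 counts that a count of 0 allows, which corresponds to between 0.0856 and 0.226 CPM depending on the library. Plce1 was thus not detectable at this depth in either group, and no fold change is given. This limit covers counting error only, because the reads carry no molecular identifiers and may be copies of each other.

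Tiam1, on chromosome 16 (89787111 to 90143769, minus strand), encodes a RAC exchange factor that binds RAS through its own RAS-binding domain. It had 1.48, 1.99 and 0.945 CPM in vehicle tumors and 7.14, 8.89 and 5.26 CPM in RGS tumors. The lowest RGS tumor was above the highest vehicle tumor. The mean rose from 1.47 ± 0.52 to 7.10 ± 1.81 CPM, a log2 fold change of 2.26 (SE 0.51, interval 1.181 to 3.33, adjusted p = 0.00230). These values rest on 52, 56 and 22 counts with vehicle and 151, 118 and 86 counts with RGS, and the interval is accordingly the widest among the 8 tested members.

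On the scale of CPM per kb, the members spanned a wide range of levels. In vehicle tumors the order from high to low was Rgl1 (31.1 ± 5.16), Rala (25.2 ± 0.96), Ralgds (19.0 ± 3.56), Rassf1 (14.0 ± 1.79), Ralb (10.7 ± 1.24), Rgl2 (9.47 ± 0.47), Rassf5 (4.18 ± 1.16), Tiam1 (0.147 ± 0.052) and Plce1. No neighbors in that order had overlapping values, but Rgl1 and Rala met closely in tumor 9 (26.4 and 26.1), as did Ralb and Rgl2 across tumors 7 (9.87) and 9 (9.82). In RGS tumors the order was Rgl1 (39.1 ± 4.30), Ralgds (36.5 ± 2.96), Rala (32.4 ± 7.10), Rgl2 (9.95 ± 0.68), Ralb (9.42 ± 0.44), Rassf1 (5.24 ± 0.81), Rassf5 (3.14 ± 0.11), Tiam1 (0.706 ± 0.18) and Plce1. There the values of Rgl1, Ralgds and Rala overlapped, as did those of Rgl2 and Ralb. Rassf1 went from the fourth place to the sixth. Its length here includes the 42.7% of exonic bases shared with Gm9917, where reads cannot be assigned with certainty, so its place is less sure. Tiam1 stayed in the eighth place despite its rise and was still below Rassf5 in every RGS tumor.

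Lists of genes around each branch were counted in the same fit. Over 7 lists, 99 of 110 genes were tested, of which 22 rose and 13 fell, so that 35.4% were called against 32.8% of all tested genes. The counts that follow describe these lists beside that background and carry no test of their own.

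Among the other regulators of RAL, 2 of 6 tested genes rose (median log2 fold change 0.061). Ralgapb, the subunit shared by the RAL GTPase activating complexes that switch RAL off, had 97.6, 82.2 and 66.7 CPM with vehicle and 142, 156 and 112 CPM with RGS, without overlap (log2 fold change 0.73, SE 0.18, adjusted p = 0.00389). Ralgapa2, a catalytic subunit of these complexes, rose from 17.3 ± 4.16 to 29.5 ± 4.17 CPM (0.78, SE 0.24, adjusted p = 0.0174), a call lost without tumor 8, 10 or 12 in turn and with libraries scaled by their totals only. The alternative catalytic subunit Ralgapa1 had 51.4 ± 6.48 CPM with vehicle and 38.7 ± 6.30 CPM with RGS (-0.41, SE 0.19, adjusted p = 0.108), and the RALGDS paralog Rgl3 had 16.3 ± 4.35 and 21.3 ± 0.52 CPM (0.38, adjusted p = 0.261). Neither passed the test.

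Of the RAL effectors and exocyst genes, 5 of 15 tested rose and 2 fell, with a median of 0.043. The exocyst subunits that bind RAL directly did not pass: Exoc2 had 70.7 ± 2.60 and 64.5 ± 5.40 CPM (-0.13, adjusted p = 0.573), and Exoc8 had 11.7 ± 2.14 and 10.8 ± 1.81 CPM (-0.12, adjusted p = 0.794). Other exocyst subunits went in both directions. Exoc6 fell from 10.3, 7.19 and 10.2 CPM to 0.568, 1.36 and 2.26 CPM (-2.74, SE 0.51, adjusted p = 0.000414), and Exoc4 fell from 111 ± 16.6 to 73.9 ± 8.16 CPM (-0.59, adjusted p = 0.0118). Exoc3 rose from 29.8 ± 4.83 to 46.1 ± 2.94 CPM (0.63, adjusted p = 0.0166), and Pld1, a phospholipase D that RAL activates with ARF, rose from 11.1 ± 2.32 to 19.7 ± 1.81 CPM (0.83, adjusted p = 0.0197). The 5 increases depended on single tumors: all of them missed the threshold without vehicle tumor 8, and also when libraries were scaled by their totals only. Without tumor 9 or 11 the count was 1, without tumor 12 it was 2 and without tumor 10 it was 3. The decrease of Exoc4 missed the threshold without RGS tumor 11 (adjusted p = 0.0722), while Exoc6 passed without any of the 6 tumors.

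In the RASSF family and the Hippo core, 2 of 12 tested genes rose and 4 fell, with a median of -0.23. Stk3, the MST2 kinase that RASSF proteins bind, had 93.2, 81.0 and 76.4 CPM with vehicle and 186, 170 and 185 CPM with RGS, with no overlap (1.11, SE 0.15, adjusted p = 2.20e-05). Its paralog Stk4 (MST1) had 28.6 ± 6.73 and 31.7 ± 5.09 CPM, overlapping between the groups (0.15, SE 0.22, adjusted p = 0.643). Mob1a, the adaptor that MST kinases phosphorylate to activate LATS, fell from 184 ± 19.0 to 85.8 ± 10.7 CPM (-1.10, SE 0.16, adjusted p = 3.83e-05). Rassf3 (38.8 ± 3.13 to 18.0 ± 5.36 CPM, log2 fold change -1.10, adjusted p = 0.00129) and Rassf7 (40.1 ± 2.75 to 21.8 ± 5.80 CPM, -0.88, adjusted p = 0.00500) fell alongside Rassf1. Rassf8, which like Rassf7 carries its RAS-association domain at the amino terminus, rose from 120 ± 27.2 to 195 ± 4.32 CPM (0.70, adjusted p = 0.00362). These 5 genes kept their calls without any of the 6 tumors.

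Of the genes around phospholipase C, 6 of 20 tested rose and 1 fell, with a median of 0.29. Prkcb, a protein kinase C that diacylglycerol and calcium activate, had 28.9, 18.8 and 20.1 CPM with vehicle and 128, 137 and 155 CPM with RGS, with no overlap (2.63, SE 0.19, adjusted p = 9.89e-09). Prkcd, a protein kinase C that needs diacylglycerol but not calcium, rose from 55.1 ± 9.18 to 112 ± 3.97 CPM (1.03, adjusted p = 0.000123). Plcd1 rose from 23.0 ± 3.08 to 43.2 ± 2.20 CPM (0.91, adjusted p = 0.00150), while Plcb4, a phospholipase that Gq proteins activate, fell from 21.9 ± 3.50 to 9.28 ± 3.13 CPM (-1.23, adjusted p = 0.00293). These 4 calls held without any of the 6 tumors.

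In the RAC list, 4 of 23 tested genes rose and 3 fell, with a median of -0.077. The substrate Rac1 had 303 ± 15.6 CPM with vehicle and 329 ± 28.1 CPM with RGS (0.12, SE 0.15, adjusted p = 0.577), and the Tiam1 paralog Tiam2 had 20.6 ± 6.55 and 17.6 ± 3.33 CPM (-0.22, SE 0.27, adjusted p = 0.569). Neither passed the test. Of the exchange factors, Vav3 had 5.88, 6.95 and 5.63 CPM with vehicle and 19.0, 13.6 and 7.15 CPM with RGS (1.11, adjusted p = 0.0231), and the adjusted p was 0.152 without RGS tumor 10. Vav2 rose from 7.27 ± 2.86 to 14.3 ± 3.94 CPM (0.97, adjusted p = 0.0387), a call lost without tumor 8, 9 or 10 in turn and with libraries scaled by their totals only. Rhog, a RAC-related GTPase, rose from 36.6 ± 4.35 to 71.6 ± 5.90 CPM (0.97, adjusted p = 0.000328). Arhgdib, a cytosolic inhibitor that sequesters small GTPases, fell from 591 ± 66.5 to 204 ± 32.6 CPM (-1.53, SE 0.16, adjusted p = 1.08e-06). Abi1, a subunit of the WAVE complex through which RAC drives actin assembly, fell from 182 ± 3.39 to 103 ± 8.37 CPM (-0.82, adjusted p = 0.000356), and the RAC-activated kinase Pak3 fell from 5.38 ± 0.56 to 1.15 ± 0.61 CPM (-2.20, adjusted p = 0.00784).

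**Figure D5:**
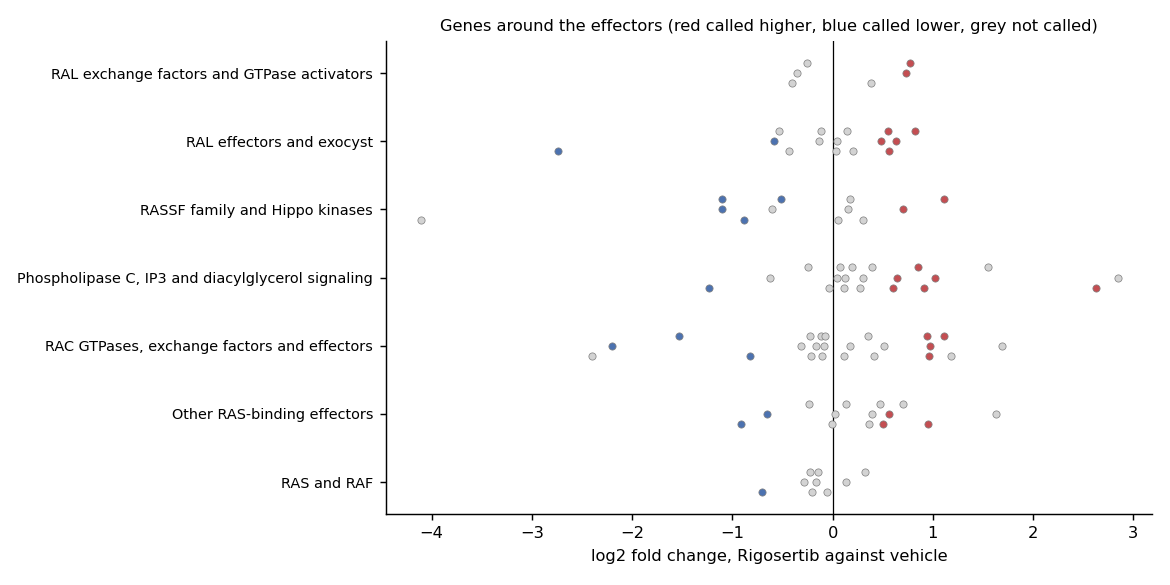
Log2 fold change, RGS against vehicle (horizontal axis), of each tested gene of the 7 lists around the members (1 row per list; points are spread vertically only to separate them). Called genes lie on both sides of 0 in 5 of the 7 lists, and 64 of the 99 genes (grey) were not called.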

How the data were processed

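Bulk RNA-seq of 6 tumors was used. Per the labels, the authors aligned paired-end reads to mm10, and the submitters' processing notes name cutadapt 1.18, FastQC 0.11.7, STAR 2.7.1a and featureCounts 1.6.4. The deposited values were raw counts per gene, without normalization, with gene length and position. The strand setting and the treatment of multimapping reads are not given in the sources used here. Positions equal those of GENCODE M21 (GRCm38) for 39178 of 40166 identifiers, all members included.

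Genes whose median count reached 5 in either group (15355) were compared in R 4.3.3 with edgeR 4.0.16 (TMM factors between 0.920 and 1.08, glmQLFit, glmQLFTest, no covariate) and Benjamini-Hochberg adjustment, with no set test. The standard error is the absolute log2 fold change over the square root of F, and intervals are at 95%. Between replicates, chi-square over degrees of freedom was 18.5 or more, which is above sampling noise, and each tumor was counted as 1 replicate. Level per kb is CPM over the gene length of the table. Ratios of counts per kb used a pseudocount of 0.5 and an exact two-sided permutation test. The procedure was tested on simulated data. Promoters came from RefSeq (GRCm38.p6), where all 9 members matched, and figures from matplotlib 3.10.9.

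The text names all 9 members and, per list, up to 3 called genes in each direction with the largest change, non-overlapping groups and a mean of at least 1 CPM in a group. It also names, whatever their values, Rgl3, Ralgapa1, Ralgapa2, Ralgapb, Exoc2, Exoc8, Stk3, Stk4, Tiam2, Rac1, Araf and Braf, and genes that overlap a member. Some genes that meet this rule are not reported here. The marker genes named were picked with their values known. The members and lists were chosen with earlier results of these data known. Alternatives were DESeq2 1.42.0, RLE, upper quartile and library size scaling, no filter, filterByExpr, mitochondrial and ribosomal protein genes left out, thinned counts, a limit of 1 on the size of the log2 fold change, and each tumor left out.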

Additional observations from a re-analysis of the deposited data

How the results depend on the processing

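The members were recomputed under 15 alternatives. Rassf1 (log2 fold change -1.56 to -1.30, adjusted p at most 0.000460) and Tiam1 (2.03 to 2.55, adjusted p at most 0.00935) were called under all 15, and Ralgds (0.80 to 1.10) under 14. A limit on the log2 fold change of 1 in size left 1 member called higher, since Ralgds (0.94) missed that limit. It also left 4 higher and 6 lower genes in the 7 lists, and 1168 higher and 1450 lower genes among all tested, against 2503 and 2533. With libraries scaled by their totals only, the median of all genes moved from -0.048 to -0.19, the share of higher among all calls from 49.7% to 37.2% and the list genes called higher from 22 to 11, and Rgl2 changed sign (-0.070). With each of the 6 tumors omitted, the log2 fold change was 0.23 to 0.47 for Rgl1, -0.0060 (without tumor 12) to 0.10 for Rgl2 and 0.19 to 0.52 for Rala. It gave 11 (without tumor 8) to 26 list genes called higher, 12 to 14 called lower, and 2 to 3 members called higher. In vehicle and RGS tumors the order of members by level was the same by a share of all counts per kb. The 5 ratios kept their sign under every alternative run. Of the 35 called list genes, 21 were called under the 14 alternatives other than the limit on fold change. No paired analysis was possible because the groups share no replicate number. The causes of these shifts were not tested. Depth limits Plce1 and, through at most 56 counts in vehicle tumors, the precision for Tiam1.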

Other observations

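The genes listed as other RAS-binding effectors, outside the 9 members, moved in both directions. Binding of their products to RAS was not measured. Of 14 tested, 3 rose and 2 fell, with a median log2 fold change of 0.38. Rin2, a RAB5 exchange factor with a RAS-association domain, rose from 55.3 ± 6.44 to 107 ± 15.2 CPM (log2 fold change 0.95, SE 0.17, adjusted p = 0.000286), while its paralog Rin1, which competes with RAF for RAS, fell from 156 ± 30.6 to 98.8 ± 11.1 CPM (-0.66, SE 0.17, adjusted p = 0.00612). The related adaptors Apbb1ip (RIAM) and Raph1 (lamellipodin) also parted: Apbb1ip rose from 81.6, 57.8 and 66.9 CPM with vehicle to 89.4, 97.6 and 106 CPM with RGS (0.51, adjusted p = 0.0295), a call lost without tumor 8, 9, 11 or 12 in turn and with libraries scaled by their totals only, and Raph1 fell from 63.9 ± 12.8 to 33.8 ± 6.11 CPM (-0.92, adjusted p = 0.00156). Pik3ca, the catalytic PI3K subunit that RAS binds, rose from 108 ± 16.5 to 159 ± 8.75 CPM (0.56, adjusted p = 0.0105), a call lost without vehicle tumor 8 (adjusted p = 0.0632) and with libraries scaled by their totals only.

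Of the 9 RAS and RAF genes, all tested, 1 was called. Rras2, a RAS-related GTPase, had 209, 208 and 221 CPM with vehicle and 122, 139 and 130 CPM with RGS, with no overlap (log2 fold change -0.71, SE 0.15, adjusted p = 0.00113). Araf and Braf did not pass the test. Araf had 104 ± 10.1 CPM with vehicle and 88.3 ± 8.77 CPM with RGS (-0.23, adjusted p = 0.296), and Braf had 33.9 ± 7.01 and 37.3 ± 3.96 CPM (0.14, adjusted p = 0.651).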
